A study of Saccharomyces cerevisiae with 24 samples.

Results

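The 46 genes described here encode the proteins that choose, license and fire DNA replication origins and that run the replication fork in *Saccharomyces cerevisiae*, and they were picked by name from the 6427 rows of the expression tables. They comprise the origin recognition complex (6 genes), the licensing factors with the Mcm2-7 helicase (8 genes), the origin firing factors (9 genes), the Dbf4-dependent kinase (2 genes), DNA polymerase alpha with primase (4 genes), polymerase delta (3 genes), polymerase epsilon (4 genes), the sliding clamp with its loader (6 genes), and a group of fork protection proteins with the replicative ligase (4 genes). The measurements came from BY4741, a haploid laboratory strain of genotype MATa *his3Δ1 leu2Δ0 met15Δ0 ura3Δ0*, grown to mid-log phase in the rich medium YEPD. In each of 3 replicate cultures the washed cells were divided into a laser portion, irradiated for 30 s with a long-wavelength ultraviolet laser, and a control portion, and both were returned to fresh YEPD at 30°. RNA was sequenced at 0, 15, 30 and 60 min after the transfer (T0, T15, T30 and T60), which gave 24 libraries in 8 groups of 3, named Laser and Control with their time. The laser portion was handled in several small tubes in a chilled block and pooled again while the control portion stayed on ice, so light and handling cannot be told apart. All groups had also been washed, chilled in buffer and diluted into new medium.

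In budding yeast, the origin recognition complex sits on origins and, with Cdc6 and the Cdt1 protein encoded by *TAH11*, loads Mcm2-7 helicases in G1 phase. In S phase the Dbf4-dependent kinase and cyclin-dependent kinase act on the loaded helicases so that Cdc45 and the GINS complex join them and the polymerases start. Many of these genes are known to be transcribed once per cell cycle, a large share of them in late G1 through the factor MBF, which binds the MCB element, and others near the end of mitosis, so their transcripts are commonly read alongside other cell-cycle genes.

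The depth of the libraries, recovered from the steps between low expression values, ran from 2569822 to 5388658 reads. Levels are RPKM, reads scaled to the length of the gene and to the total of the library, in which a gene without reads carries 0.021. The deleted markers *LEU2* and *URA3* sat at 0.021 in 24 of 24 libraries, and *STE2*, the receptor made by MATa cells, lay between 202 and 916 RPKM. The libraries farthest from the others of their own group were Laser T60 replicate 1 and Laser T30 replicate 1 (mean Bray-Curtis distance 0.113 and 0.111), where the other libraries lay between 0.0460 and 0.101. The 46 members took between 0.0767% and 0.157% of the summed RPKM of a library, and both extremes were laser libraries, Laser T60 replicate 1 and Laser T15 replicate 3. Every member had at least 24 reads in every library, the fewest being those of *MCM10*.

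The promoter windows of the members carried cell-cycle elements more often than those of other genes. Windows running from 250 bases before to 50 bases after the annotated gene start were taken from RefSeq (build R64), where the start of a yeast gene is that of its coding region, and all 46 members matched. The MCB letters ACGCGT, which read the same on both strands, were found in 19 of 46 member windows (41.3%), against 184 of 6001 windows of protein-coding genes (3.07%). The SCB letters CACGAAA or CGCGAAA, known as targets of the factor SBF and searched on both strands, were found in 10 member windows (21.7%), against 462 of the 6001 (7.70%). The windows with 2 or more copies of ACGCGT were those of *POL1*, *POL12*, *CDC45* and *TOF1*, which is 8.70% of members and compares with 0.350% of all windows. A match of letters is a description and does not show that a factor binds there.

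The upstream 150 bases of these windows are shown for *POL30* and *POL1*, the genes with ACGCGT whose laser and control levels differed with the smallest p at T30, and for *MCM7*, which held that place among the Mcm2-7 genes. Shorter stretches of 30 bases are shown for *SLD2* and *CDC9*, whose laser levels passed the test at T15 and which also carry ACGCGT. Capitals mark the MCB letters and both forms of the SCB letters given above. The positions are chrII:425867-426016 on the minus strand for *POL30*, chrXIV:429837-429986 on the plus strand for *POL1*, chrII:625522-625671 on the plus strand for *MCM7*, chrXI:234305-234334 on the plus strand for *SLD2* and chrIV:167362-167391 on the minus strand for *CDC9*, all in R64.
POL30: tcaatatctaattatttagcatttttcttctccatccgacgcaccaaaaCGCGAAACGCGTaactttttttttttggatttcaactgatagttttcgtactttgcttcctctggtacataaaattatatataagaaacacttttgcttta
POL1: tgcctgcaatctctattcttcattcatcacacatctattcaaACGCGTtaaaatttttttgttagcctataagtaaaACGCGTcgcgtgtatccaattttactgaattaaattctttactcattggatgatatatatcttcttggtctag
MCM7: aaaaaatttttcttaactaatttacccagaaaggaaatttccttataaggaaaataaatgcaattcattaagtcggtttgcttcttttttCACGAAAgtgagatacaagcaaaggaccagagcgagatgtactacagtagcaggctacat
SLD2: cacatcacgtttACGCGTatggtgaaacac
CDC9: cttaaCGCGAAAACGCGTgaaagtgaaatt
In *POL30* the CGCGAAA and ACGCGT letters share 1 base, in *CDC9* they stand side by side, and *POL1* has a pair of separate ACGCGT copies. *MCM7* has CACGAAA and no ACGCGT in its window. *TAH11*, the member with the largest laser difference, has neither element in its window, and neither does *CDC7*.

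The members differed in level by more than an order of magnitude. The highest medians over the 24 libraries were those of *POL30*, which encodes the sliding clamp PCNA (85.9 RPKM, from 59.8 to 269), and of *DPB4*, a small histone-fold subunit of polymerase epsilon (85.4 RPKM, from 55.3 to 136). The lowest were those of *POL2*, the catalytic subunit of polymerase epsilon (6.09 RPKM, from 3.09 to 14.3), and of *TOF1*, a fork protection factor (6.90 RPKM, from 2.76 to 14.9). The subunits of polymerase epsilon thus spanned nearly the whole range, on a scale already divided by gene length. In the order of medians most neighbours overlapped over the 24 libraries, and *POL30*, *DPB4* and *RFC2* (77.1 RPKM) did not separate from each other.

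**Figure D1:**
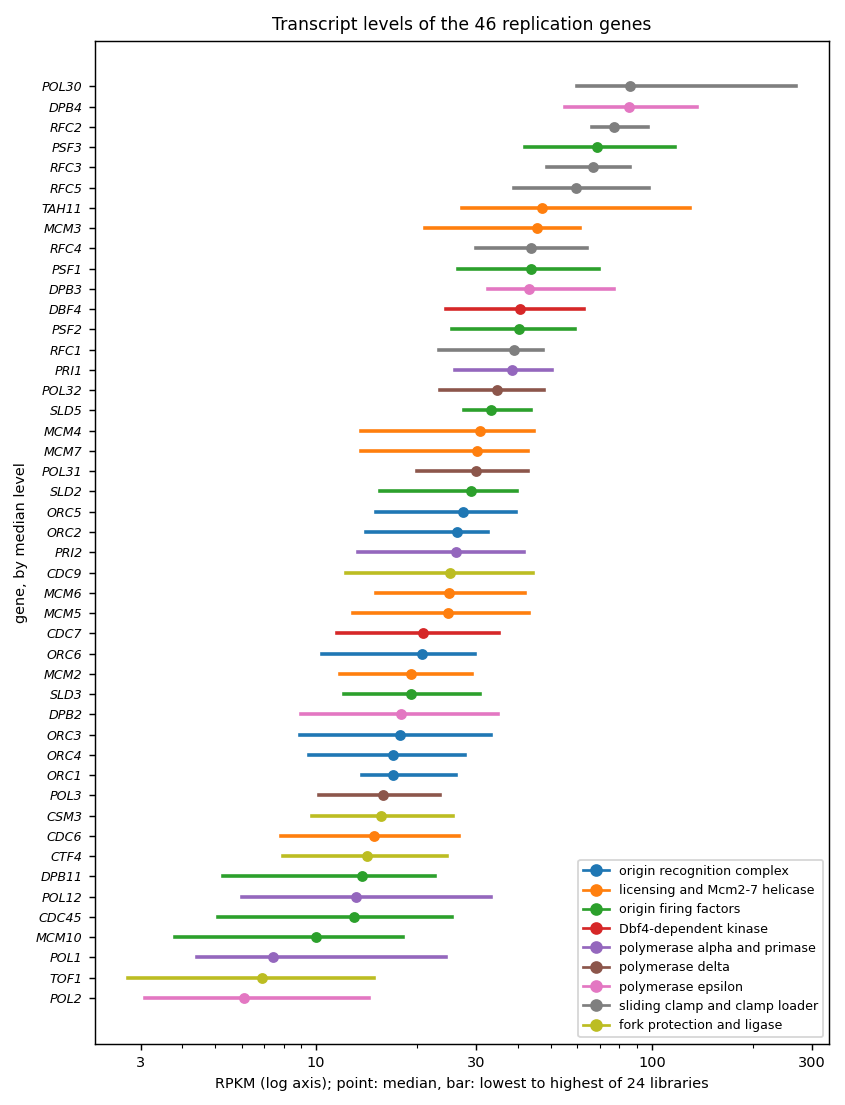
RPKM of the 46 members on a log axis, with the median (point) and the lowest to highest value (bar) of the 24 libraries, coloured by role and ordered by median. *POL30* has the highest median (85.9 RPKM) and the longest reach upward (to 269 RPKM), and *POL2* has the lowest median (6.09 RPKM).

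Within the other groups the levels were as follows. The origin recognition complex was even, with means over the 24 libraries from 17.9 RPKM for *ORC1*, its ATPase that binds Cdc6, to 27.6 RPKM for *ORC5*. Among the licensing genes *CDC6* averaged 15.8 RPKM and *TAH11* 55.7 RPKM, and among the firing factors *MCM10* averaged 9.37 RPKM and the GINS subunit *PSF3* 74.5 RPKM. The catalytic kinase subunit *CDC7* averaged 19.9 RPKM and its activator *DBF4* 40.8 RPKM. The catalytic subunits were the lowest member of each polymerase, *POL1* at 10.2 RPKM against *PRI1* at 37.6 RPKM, and *POL3* at 16.0 RPKM against *POL32* at 34.2 RPKM. The large clamp loader subunit *RFC1* averaged 37.8 RPKM, and the ligase *CDC9* was the highest of its group with 25.1 RPKM. Longer members had lower medians, with a Spearman rho of -0.61 between gene length and median RPKM over 46 members (from 585 bp for *PSF3* to 6669 bp for *POL2*), against -0.26 over 5857 genes. Gene length enters the RPKM itself, and genes are not independent samples, so this is a description.

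The first question was whether irradiated cells differed from control cells in these transcripts at each time. Few members passed a test that takes the laser and control libraries as unpaired, and those were single genes of several complexes and not whole complexes. With each shared culture as a block, given further below, 17 members rose and 1 fell at T15. By that setting 41.2% of all genes rose and 12.5% fell. In the unpaired test no member passed at T0 at limma's Benjamini-Hochberg adjusted p under 0.05. At T15 5 members rose and none fell, namely *TAH11*, *SLD2*, *CDC7*, *CDC9* and *DPB3*. At T30 only *POL30* passed, and it fell. At T60 none passed, and at that time the test recovered 0% of 2-fold changes in simulated data with 200 changed genes. All 46 members were tested at every time, and fold changes are laser over control on the log2(RPKM + 1) scale, which understates changes of low genes. Since whole cultures were sequenced, fewer cells in a given cell-cycle stage and less of a transcript per cell cannot be told apart.

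The counts are read against the share of all tested genes called at the same time. At T15 22.6% of all tested genes rose and 4.26% fell, so 5 of 46 members is a smaller share of rising genes than the background, a difference that was not tested. At T30 14.4% of tested genes rose, with 0 of 46 members, and 2.15% fell, with 1 of 46, which is near that share. At T0 0.017% of genes rose and none fell, and at T60 0.187% rose and 0.051% fell, with no member among them. At an unadjusted limma p under 0.05 the members counted 0 higher and 1 lower at T0, 8 higher and 0 lower at T15, 2 higher and 3 lower at T30, and 0 higher and 1 lower at T60. By the same rule 170 of 5884 tested genes were higher and 102 lower at T0, and 1887 of 5887 higher and 502 lower at T15. At T30 1369 of 5871 were higher and 305 lower, and at T60 370 of 5877 were higher and 117 lower. With a minimum change of 2-fold added, *TAH11* at T15 was the only member left, where 12.3% of all genes remained as higher.

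The median log2 fold change of the 46 members was 0.03 at T0, 0.18 at T15, -0.02 at T30 and 0.03 at T60. Over all tested genes the medians were 0.01, 0.29, 0.15 and 0.11 at the same times, which means that most genes read slightly higher in laser libraries from T15 on. When the libraries were rescaled by median ratios, which brought the median of all genes to between -0.02 and 0.01 at every time, the members' median became -0.13 at T15 and -0.19 at T30. The direction of the members as a set at T15 therefore turned with the scaling, and under the rescaling 3 members were higher and 4 lower at T15 (*ORC1*, *ORC2*, *CDC6* and *MCM7*) and 1 higher and 6 lower at T30. Of all genes 15.0% were then higher and 13% lower at T15, and 13.8% higher and 7.97% lower at T30. *TAH11*, *SLD2* and *CDC9* passed at T15 and *POL30* at T30 under both scalings. In the unpaired test *CDC7* and *DPB3* at T15 passed only without the rescaling (rescaled limma adjusted p 0.0676 and 0.350). When the culture block was joined with the rescaling, an alternative chosen after seeing the data, both genes passed. Under that setting *POL31*, *RFC3*, *POL32*, *ORC6* and *PSF2*, which passed at T15 with the block alone, did not pass. Their log2 fold changes there were 0.01 to 0.21, with limma adjusted p from 0.216 to 0.940. *DPB2* and *CTF4* also passed with the block alone and not there (adjusted p 0.0524 and 0.0893).

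**Figure D2:**
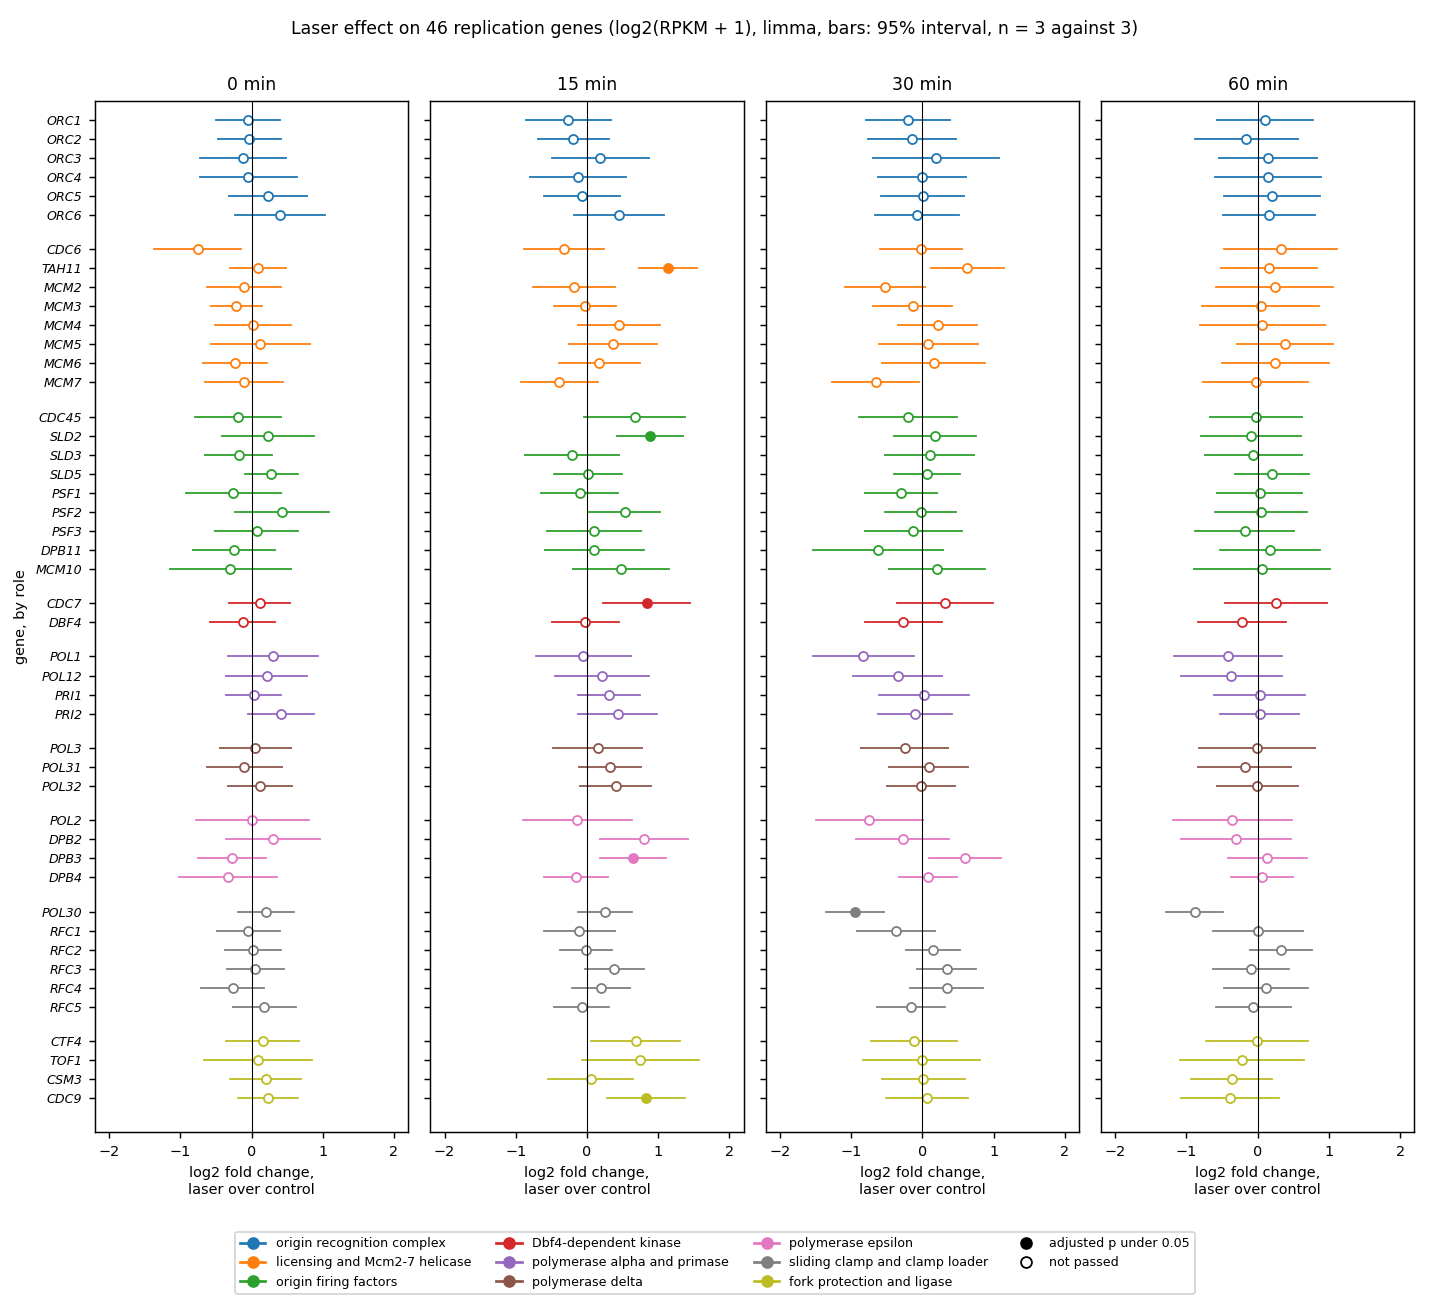
Log2 fold change of laser over control on log2(RPKM + 1) for each of the 46 members at 4 times, with 95% intervals from limma (3 libraries against 3), coloured and grouped by role, filled where the adjusted p was under 0.05. The filled points are 5 at T15, all right of 0 with *TAH11* farthest (1.14), and 1 at T30, *POL30* at -0.95.

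The precision behind these counts was moderate. The median standard error of a member's log2 fold change was 0.22 at T0, 0.25 at T15, 0.26 at T30 and 0.30 at T60. The 95% interval lay wholly within a 2-fold change in either direction for 41, 33, 37 and 35 of the 46 members at T0, T15, T30 and T60. For those members a change past 2-fold is outside the interval, and for the others it is not. The laser and control values did not overlap, with laser higher, for 2 members at T0, 14 at T15, 4 at T30 and 1 at T60, where 5.42%, 34.2%, 24.4% and 9.68% of all tested genes did. With laser lower they did not overlap for 1, 0, 5 and 2 members, where 5.12%, 9.22%, 7.29% and 3.16% of all tested genes did. At T30 longer members had somewhat lower laser over control values, with a Spearman rho of -0.34 between gene length and log2 difference over 46 members (-0.09 over 5857 genes), and the rho was between -0.10 and -0.06 at the other times. Its part in the values at T30 was not tested.

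Among the licensing genes, *TAH11* (YJR046W, chrX:522048-523862 in R64) carried the largest difference. Its level at T15 was 97.7, 108 and 129 RPKM in Laser replicates 1 to 3, against 49.9, 44.3 and 55.6 RPKM in Control. Every laser library lay well above every control library, and the group means were 111.6 ± 16.2 and 49.95 ± 5.65 RPKM (SD, n = 3 each). The log2 fold change was 1.14 (SE 0.19, limma adjusted p = 0.0014), and it passed without any 1 of the 6 libraries. At T30 *TAH11* stood at 48.5, 77.8 and 77.9 RPKM in Laser libraries, against 40.5, 40.3 and 47.4 RPKM in Control libraries. The groups did not overlap but 1 laser library came close to the control range, and the test was not passed (log2 fold change 0.63, SE 0.23, adjusted p = 0.0973, or 0.0114 with the shared culture as a block). At T0 and T60 its groups overlapped (log2 fold changes 0.09 and 0.16). Tah11 is the Cdt1 of yeast, which escorts Mcm2-7 to origins.

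The other licensing genes did not pass at any time without the culture block. *CDC6*, the ATPase that works with the origin recognition complex to load the helicase, had at T0 12.5, 12.1 and 7.84 RPKM in Laser libraries, against 14.9, 18.7 and 23.1 RPKM in Control libraries. All laser values were below all control values, yet the difference did not survive adjustment over all genes (log2 fold change -0.76, SE 0.26, unadjusted p 0.0215, limma adjusted p = 0.826). At T15, T30 and T60 the *CDC6* groups overlapped. *MCM7*, a helicase subunit, had at T30 13.6, 20.1 and 26.8 RPKM in Laser libraries, against 30.7, 30.4 and 32.6 RPKM in Control libraries. Laser values were lower and more scattered, with a log2 fold change of -0.66 (SE 0.27, adjusted p = 0.141, or 0.0353 with the culture block). *MCM2* also did not overlap at T30, with 11.9 to 16.7 RPKM in Laser and 20.7 to 23.0 RPKM in Control libraries (log2 fold change -0.52, adjusted p = 0.210). At T15 *MCM7* had 23.5, 18.6 and 28.8 RPKM in Laser libraries, against 31.0, 25 and 37.6 RPKM in Control libraries, and *MCM4* had 31.5, 29.7 and 44.7 RPKM in Laser libraries, against 22.4, 20.2 and 34.8 RPKM in Control libraries. Laser was lower in each culture for *MCM7* and higher in each culture for *MCM4* (log2 fold changes -0.39 and 0.45, limma adjusted p 0.261 and 0.219, or 0.0219 and 0.0126 with the block). *MCM3*, *MCM4*, *MCM5* and *MCM6* overlapped at all 4 times, and at T30 their log2 fold changes ran from -0.13 to 0.22, or from -0.31 to 0.04 with rescaled libraries.

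The origin recognition complex gave no call at any time without the culture block. Its 6 log2 fold changes lay between -0.12 and 0.40 at T0, -0.26 and 0.45 at T15, -0.20 and 0.19 at T30, and -0.16 and 0.20 at T60. *ORC6*, whose product has no ATPase fold, had at T15 17.8, 17.5 and 29.7 RPKM in Laser libraries, against 12.6, 13.5 and 20.3 RPKM in Control libraries. Within each culture laser was the higher, but the groups overlapped (log2 fold change 0.45, SE 0.29, limma adjusted p = 0.266, or 0.0228 with the culture block). *ORC1* had at T15 15.3, 13.7 and 21.9 RPKM in Laser libraries, against 19.3, 16.2 and 26.2 RPKM in Control libraries. Within each culture laser was the lower, and the groups overlapped (log2 fold change -0.26, SE 0.27, adjusted p = 0.503). For this complex a 2-fold change at T15 was outside the 95% interval of *ORC1*, *ORC2*, *ORC3*, *ORC4* and *ORC5*.

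Among the origin firing factors *SLD2* was the only one that passed. Sld2 binds Dpb11 once cyclin-dependent kinase has phosphorylated it, which is a step of origin firing. *SLD2* (YKL108W, chrXI:234426-235787) had at T15 30.8, 32.7 and 33.9 RPKM in Laser libraries, against 17.2, 15.5 and 18.9 RPKM in Control libraries. The groups were tight and far apart (log2 fold change 0.88, SE 0.21, limma adjusted p = 0.0118), and the call held without any 1 library. The laser range at T15 lay inside that of Laser T0 (33.6, 39.8 and 30.4 RPKM), while 2 of 3 control libraries at T15 were below every control library of T0 (18.6, 37.5 and 35.5 RPKM).

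The other firing factors gave no call without the culture block. *PSF2*, a GINS subunit, had at T15 46.03, 54.0 and 49.5 RPKM in Laser libraries, against 25.6, 42.9 and 36.4 RPKM in Control libraries. No values overlapped (log2 fold change 0.53, SE 0.22, limma adjusted p = 0.103, or 0.0126 with the culture block). The other GINS genes *SLD5*, *PSF1* and *PSF3* overlapped at T15 with log2 fold changes of 0.02, -0.10 and 0.10, and rescaling took the 4 subunits to 0.21 for *PSF2* and to between -0.42 and -0.22 for the other 3. *CDC45*, the helicase partner of GINS, had at T15 13.7, 12.6 and 15.5 RPKM in Laser libraries, against 9.21, 5.09 and 12.2 RPKM in Control libraries. These did not overlap either, and the test was not passed (log2 fold change 0.67, SE 0.32, adjusted p = 0.145, or 0.0330 with the block). *SLD3*, *DPB11* and *MCM10* overlapped at every time.

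Of the 2 genes of the Dbf4-dependent kinase, 1 passed. *CDC7*, the catalytic subunit (YDL017W, chrIV:424209-425732), had at T15 23.6, 22.2 and 34.9 RPKM in Laser libraries, against 12.7, 11.6 and 19.9 RPKM in Control libraries. Laser was higher in each culture and the groups did not overlap (log2 fold change 0.84, SE 0.28, limma adjusted p = 0.0461). The call sat at the threshold, since without 1 library the adjusted p ran from 0.0107 to 0.150, and only leaving out Control replicate 3 kept it under 0.05. *DBF4*, whose protein is unstable and gives the kinase its timing, was at T30 24.6, 32.7 and 40.2 RPKM in Laser libraries, against 41.4, 33.3 and 41.4 RPKM in Control libraries. Its groups overlapped at all 4 times (log2 fold change -0.27, SE 0.24, adjusted p = 0.538 at T30, and -0.02 at T15).

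Polymerase alpha with primase, which lays down the primers, gave no call between laser and control without the culture block, and with it 2 of its 4 genes rose at T15. *PRI1*, the small primase subunit, had at T15 39.98, 39.4 and 47.7 RPKM in Laser libraries, against 34.4, 30.2 and 37.2 RPKM in Control libraries (log2 fold change 0.31, SE 0.20, limma adjusted p = 0.266, or 0.0397 with the block). *PRI2*, the large primase subunit, had at T15 20.4, 16.4 and 25.8 RPKM in Laser libraries, against 16.0, 13.3 and 15.8 RPKM in Control libraries (log2 fold change 0.43, SE 0.25, adjusted p = 0.225, or 0.0415 with the block). Neither gene overlapped between the groups. *POL1*, the catalytic subunit (YNL102W, chrXIV:430087-434493), had at T30 5.64, 6.83 and 11.4 RPKM in Laser libraries, against 15.5, 12.2 and 15.7 RPKM in Control libraries. All laser values were below all control values (log2 fold change -0.83, SE 0.32, limma adjusted p = 0.114, or 0.0363 with the culture block). At T0 *PRI2* had 29.4, 35.0 and 35.0 RPKM in Laser libraries, against 20.1, 29.4 and 25.1 RPKM in Control libraries. The highest control value nearly met the lowest laser value (log2 fold change 0.41, SE 0.20, adjusted p = 0.99997). *POL12* and *PRI1* had log2 fold changes of -0.35 and 0.03 at T30, where their groups overlapped.

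The polymerase delta genes, for the enzyme of the lagging strand, gave no call without the culture block. *POL32*, the subunit that is not essential in yeast, had at T15 39.2, 31.1 and 43.3 RPKM in Laser libraries, against 27.1, 23.4 and 35.0 RPKM in Control libraries. Laser was higher in each culture while the groups overlapped (log2 fold change 0.40, SE 0.23, limma adjusted p = 0.211, or 0.0188 with the culture block). *POL31* had at T15 30.8, 33.6 and 36.7 RPKM in Laser libraries, against 24.9, 28.2 and 26.99 RPKM in Control libraries. Laser values were all above control values (log2 fold change 0.32, SE 0.20, adjusted p = 0.255, or 0.0432 with the block). The catalytic subunit *POL3* overlapped at all times, with log2 fold changes between -0.25 and 0.15.

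Polymerase epsilon, the leading-strand enzyme, gave 1 call. *DPB3*, a small histone-fold subunit (YBR278W, chrII:760294-760899), had at T15 61.3, 77.1 and 52.8 RPKM in Laser libraries, against 39.3, 46.5 and 34.2 RPKM in Control libraries. All laser libraries were above all control libraries (log2 fold change 0.65, SE 0.21, limma adjusted p = 0.0407), though the adjusted p ran from 0.0176 to 0.179 when 1 library was left out, and it passed without Laser replicate 3 and without Control replicate 2 only. At T30 *DPB3* again did not overlap, with 39.9 to 61.3 RPKM in Laser and 32.4 to 37.3 RPKM in Control libraries (log2 fold change 0.60, adjusted p = 0.107, or 0.0225 with the culture block). *DPB2*, the subunit that ties the polymerase to GINS, had at T15 12.7, 20.7 and 22.2 RPKM in Laser libraries, against 9.02, 10.1 and 10.9 RPKM in Control libraries. There was no overlap, and the test was narrowly missed (log2 fold change 0.79, SE 0.28, adjusted p = 0.0565, or 0.00754 with the block). *POL2*, the catalytic subunit, pointed the other way at T30, with 3.30 to 7.26 RPKM in Laser and 8.92 to 9.86 RPKM in Control libraries (log2 fold change -0.74, adjusted p = 0.179). *DPB4* overlapped at every time.

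*POL30* was the member that fell. PCNA, its product, encircles DNA and holds polymerases and ligase on it, and the gene lies at chrII:424990-425766 (YBR088C). At T30 *POL30* had 63.6, 72.8 and 72.9 RPKM in Laser libraries, against 161, 126 and 122 RPKM in Control libraries. The highest laser value was far below the lowest control value, and the means were 69.8 ± 5.34 and 136.3 ± 21.4 RPKM (SD, n = 3 each). The log2 fold change was -0.95 (SE 0.19, limma adjusted p = 0.00576), it passed without any 1 of the 6 libraries, and rescaled it was -1.13. At T60 the levels were 139.7, 128 and 140.0 RPKM in Laser libraries, against 235, 253 and 269 RPKM in Control libraries. The separation was as wide as at T30 (log2 fold change -0.89, SE 0.18), but the adjusted p was 0.0945, where few genes of the table had small p-values, and 4.14e-07 with the culture block. At T0 and T15 the *POL30* log2 fold changes were 0.20 and 0.26 and did not pass.

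The clamp loader genes *RFC1* to *RFC5*, whose products open PCNA and place it on DNA, gave no call without the culture block. *RFC3* had at T15 81.9, 77.4 and 70.3 RPKM in Laser libraries, against 67.0, 48.9 and 60.3 RPKM in Control libraries. Again all laser values were the higher (log2 fold change 0.39, SE 0.19, limma adjusted p = 0.148, or 0.0292 with the culture block). At T30 the 5 loader genes ran from -0.37 for *RFC1* to 0.34 for *RFC3* and *RFC4*, and at T60 from -0.09 to 0.33, with none passing. *RFC5* and *POL30* are neighbours transcribed towards each other on chromosome II (chrII:423765-424829 for *RFC5*), and at T30 *RFC5* had 51.2 to 59.7 RPKM in Laser and 48.3 to 74.9 RPKM in Control libraries, which overlapped.

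In the last group *CDC9* passed. It encodes DNA ligase I, which seals the fragments of the lagging strand (YDL164C, chrIV:164987-167254). At T15 *CDC9* had 27.2, 23.7 and 32.9 RPKM in Laser libraries, against 15.1, 12.3 and 18.8 RPKM in Control libraries. The lowest laser value was above the highest control value (log2 fold change 0.83, SE 0.25, limma adjusted p = 0.0301), and the adjusted p ran from 0.0117 to 0.1003 when 1 library was left out, staying under 0.05 without Laser replicate 2 and without Control replicate 3. *CTF4*, which couples the helicase to polymerase alpha, had at T15 12.6, 14.8 and 20.7 RPKM in Laser libraries, against 8.97, 7.94 and 11.6 RPKM in Control libraries. The groups did not overlap (log2 fold change 0.68, SE 0.29, adjusted p = 0.0980, or 0.0113 with the culture block). The partners *TOF1* and *CSM3*, which pause and protect forks, gave 0.75 and 0.05 at T15, with overlapping groups, and *TOF1* passed with the block (adjusted p = 0.0293, against 0.159 without it).

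**Figure D3:**
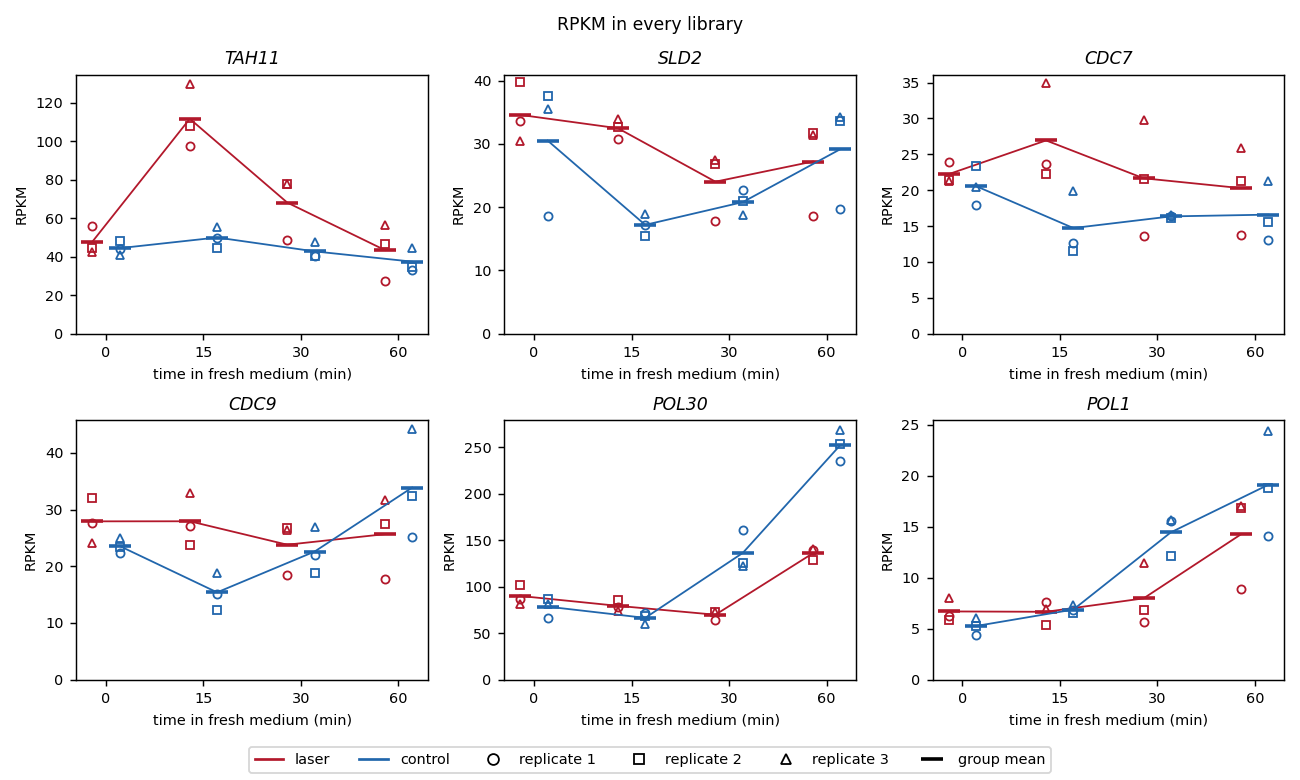
RPKM in every library for *TAH11*, *SLD2*, *CDC7*, *CDC9*, *POL30* and *POL1*, laser in red and control in blue, with evenly spaced time points in min, a symbol per replicate and bars joined by lines for the group means. *TAH11* peaks in laser libraries at T15 (mean 111.6 RPKM), *SLD2* and *CDC9* have their lowest control mean at T15, and *POL30* averages 69.8 RPKM in laser and 136.3 RPKM in control libraries at T30.

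When each culture was used as a block, which the division of every culture into both portions allows, more members passed. At T15 17 members rose and 1 fell (*MCM7*), where 41.2% of all genes rose and 12.5% fell. At T30 2 rose (*TAH11* and *DPB3*) and 3 fell (*POL30*, *POL1* and *MCM7*), where 24% of all genes rose and 5.91% fell. At T60 1 member fell, *POL30*, where 3.62% of all genes did, where 9.36% rose, and at T0 none passed, where 1.04% of genes rose and 0.476% fell. At T15 the members' share of rising genes was thus near that of all genes. With the block and the rescaling joined, 5 members rose and 13 fell at T15, where 23.2% and 24.4% of all genes did.

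The second question was how the members moved over time in each portion, tested between neighbouring times in 1 limma fit of all 24 libraries. The fit left out the shared culture. Calls were lost when a culture was left out, which also leaves fewer libraries, and without culture 2 no member passed in any of these tests. Without culture 2 the rises called for *POL30*, *POL1* and *TAH11* kept log2 fold changes of 0.84 to 1.19, against 0.89 to 1.21 with all cultures. The falls of *SLD2* and *PRI2* in control cells shrank to -0.49 and -0.47, and that of *PRI2* in laser cells to -0.47. In control cells 2 members fell in the first 15 min, *SLD2* and *PRI2*, where 24.6% of all genes fell. With rescaled libraries 6 members rose and 1 fell (*PRI2*), where 13.7% and 16.3% of all genes did. The members' median log2 change was -0.07 as reported and 0.24 when rescaled. *SLD2* had 17.2, 15.5 and 18.9 RPKM in Control T15, against 18.6, 37.5 and 35.5 RPKM in Control T0 (log2 fold change -0.73, SE 0.26, limma adjusted p = 0.0410). The lowest T0 value, replicate 1, lay within the T15 range, and with rescaled libraries the adjusted p was 0.0878. *PRI2* had 16.0, 13.3 and 15.8 RPKM in Control T15, against 20.1, 29.4 and 25.1 RPKM in Control T0, with no overlap (log2 fold change -0.68, SE 0.20, adjusted p = 0.0159). Both calls in control cells passed without culture 1 and were lost without culture 2 or 3. In laser cells *PRI2* also fell, with 20.4, 16.4 and 25.8 RPKM in Laser T15, against 29.4, 35.0 and 35.0 RPKM in Laser T0 (log2 fold change -0.66, SE 0.20, adjusted p = 0.0344), where 6.74% of all genes fell, but this call needed all 3 cultures. With the culture block *MCM4*, *DPB3* and *CDC9* fell as well in control cells, where 37.9% of all genes fell, and *MCM5*, *MCM10*, *POL31* and *DPB3* rose in laser cells, where 9.79% rose.

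*TAH11* rose in laser cells over the same interval, to the values at T15 given above, against 55.8, 44.6 and 42.7 RPKM in Laser T0 (log2 fold change 1.21, SE 0.23, limma adjusted p = 0.000948), where 5.40% of all genes rose. The call passed without culture 1 or 3 and was lost without culture 2 (adjusted p = 0.138). In control cells its T15 and T0 ranges overlapped. The difference of its laser effect between T15 and T0 was 1.05 on the log2 scale (SE 0.32) and missed the threshold with an adjusted p of 0.0636, or 0.0110 with the culture block, under which *DPB3* passed as well and 16.2% of all genes had a higher laser effect. The laser means of *TAH11* were 111.6, 68.1 and 43.4 RPKM at T15, T30 and T60, and the control means 49.95, 42.7 and 37.4 RPKM. Its log2 fold changes in laser cells were -0.73 for T30 over T15 and -0.67 for T60 over T30 (adjusted p 0.0984 and 0.0674, or 0.0166 and 0.0164 with the block).

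Between T15 and T30 *POL30* and *POL1* rose in control cells, where 0.960% of all genes rose. *POL30* had 161, 126 and 122 RPKM in Control T30, against 71.2, 68.1 and 59.8 RPKM in Control T15 (log2 fold change 1.0196, SE 0.15, limma adjusted p = 0.000136). *POL1* had 15.5, 12.2 and 15.7 RPKM in Control T30, against 6.79, 6.54 and 7.27 RPKM in Control T15 (log2 fold change 0.97, SE 0.28, adjusted p = 0.0463). Both pairs of groups were far from overlapping. With the culture block *POL12*, *PRI2*, *DPB2*, *CTF4* and *ORC6* passed as well, where 2.26% of all genes rose. The *POL30* call in control cells passed without culture 1 or 3, and that of *POL1* needed all 3 cultures. In laser cells no member passed between T15 and T30 (0.423% of all genes rose and 2.25% fell), and *POL30* stood at 63.6, 72.8 and 72.9 RPKM in Laser T30, against 78.4, 85.4 and 74.2 RPKM in Laser T15.

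The laser effect on *POL30* differed between these times. Its log2 fold change of laser over control was lower at T30 than at T15 by 1.20 (an interaction of -1.20, SE 0.21, limma adjusted p = 0.00380, where 0.342% of all genes had a lower laser effect). It was the only member of 46 to pass this test. The adjusted p was 0.0599, 0.7998 and 0.0930 when culture 1, 2 or 3 was left out, with estimates from -1.28 to -1.07, so the estimate stayed within that range while the call needed all 3 cultures.

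Between T30 and T60 *POL30* rose in both portions. In laser cells it had 139.7, 128 and 140.0 RPKM at T60, against 63.6, 72.8 and 72.9 RPKM at T30 (log2 fold change 0.95, SE 0.15, limma adjusted p = 0.000120), where 1.84% of all genes rose. In control cells it had 235, 253 and 269 RPKM at T60, against 161, 126 and 122 RPKM at T30 (log2 fold change 0.89, SE 0.15, adjusted p = 0.00170), where 0.521% of all genes rose. The laser range at T60 (128 to 140.0 RPKM) lay inside the control range at T30 (122 to 161 RPKM). The laser call passed without culture 1 or 3, and the control call without culture 1 only. No other member passed in this interval, and no laser effect of a member passed a test of its change between T60 and T30, where 0.26% of all genes had a higher and 2.51% a lower effect. With the culture block *MCM7*, *CDC45*, *POL1*, *PRI2* and *RFC5* also rose and *TAH11* fell in laser cells, where 4.88% of genes rose and 17.8% fell.

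The members with ACGCGT in their window and those without it are described here side by side, without a test. Between T15 and T30 in control cells the 19 genes with the element had a median log2 change of 0.53, with 16 of 19 above 0, and the 27 without it had 0.00, with 14 of 27 above 0. Over all genes the median was -0.07, with 2462 of 6146 above 0. In laser cells over the same interval the medians were -0.14 and -0.13, against -0.16 over all genes. Between T30 and T60 the medians were 0.22 with and -0.02 without the element in laser cells, and 0.36 and -0.06 in control cells. Over all genes they were -0.14 in laser and -0.07 in control cells. The laser over control medians for genes with and without the element were 0.26 and 0.02 at T15, -0.12 and 0.03 at T30, and -0.18 and 0.10 at T60. In single libraries the median of the 19 genes relative to the mean of Control T0 was -0.29, 0.12 and 0.29 in Laser T30 and 0.27, 0.09 and 0.31 in Control T30, so the portions overlapped at T30 and Laser replicate 1 stood lowest. At T15 it was 0.09, 0.06 and 0.36 in Laser and -0.24, -0.44 and 0.00 in Control libraries, which did not overlap. The median of all genes did not overlap at T15 either, at -0.08, -0.09 and 0.06 in Laser and -0.43, -0.43 and -0.14 in Control libraries. Its laser over control median at T15 was 0.29. The median of the 27 genes without the element overlapped, at 0.08, 0.03 and 0.23 in Laser and -0.14, -0.23 and 0.30 in Control libraries.

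**Figure D4:**
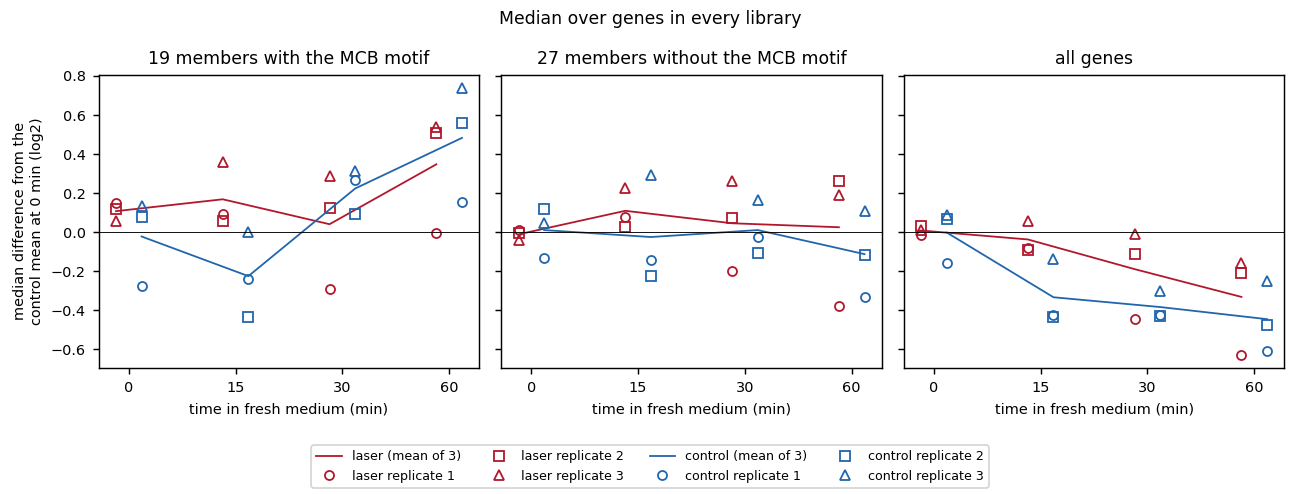
Median over genes of the log2 difference from the mean of Control T0 in every library, for the 19 members with ACGCGT (MCB), the 27 members without it and all genes, laser in red and control in blue, with evenly spaced time points in min and lines through the means of 3 libraries. Members with the element read -0.24, -0.44 and 0.00 in Control T15 and 0.27, 0.09 and 0.31 in Control T30, and those without it read -0.14, -0.23 and 0.30 in Control T15 and -0.02, -0.11 and 0.17 in Control T30.

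Other genes of replication and the cell cycle are given for comparison by counts. Of 24 further replication genes, such as single-strand binding, Okazaki fragment and chromatin assembly genes, 9 rose at T15 and none fell (22.6% and 4.26% of all genes), with a median log2 fold change of 0.49. At T30 3 rose, *RFA1*, *RFA2* and *RFA3* (1.70, 1.81 and 1.22, limma adjusted p 0.000951, 8.70e-05 and 0.00726), which encode the single-strand binding complex RPA, and none fell (14.4% and 2.15% of all genes). Among 10 transcripts of late G1 2 rose and 2 fell at T15, and 5 fell at T30 with a median of -0.82, led by *HO*, *CLN2* and *CLN1* (-2.43, -1.29 and -1.56). At T30 *POL30*, at -0.95, and *POL1*, at -0.83 without passing the unpaired test, were close to the median of these 10 transcripts. The median of the 46 members, at -0.02, was not.

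Of the regulators of that wave, 10 genes, *YOX1* fell at T30 (-1.09, limma adjusted p = 0.0259) and *WHI5* rose at T15 (0.95, adjusted p = 0.0220). Among 10 transcripts of G2 and mitosis 2 fell at T15 and 2 at T30 (*CLB1* and *ALK1*, -0.98 and -1.02), and among 8 of the transition into G1 2 fell at T15 and 1 at T30 (*TEC1*, -0.98). Of 8 histone genes 1 fell at each of T15, T30 and T60, and their median was -1.13 at T60, where reads of near-identical histone copies cannot be placed with certainty. Of all genes 4.26% fell at T15, 2.15% at T30 and 0.051% at T60. With the culture block 6 of the 10 G2 and mitosis transcripts fell at T15 and 5 at T30, 5 of the 8 of the transition into G1 fell at each of these times, and 8 of 8 histone genes fell at T60, where 12.5%, 5.91% and 3.62% of all genes fell at T15, T30 and T60. The part of these genes' values in those of the members was not tested.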

How the data were processed

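RNA of 24 libraries, laser and control cells of 3 cultures at 4 times, was measured by the authors with a stranded poly(A) library kit (TruSeq), aligned to the S288C genome in SeqMan NGen and summarised in ArrayStar. The deposited tables, 1 per time point, hold RPKM as computed by the authors, and these RPKM columns of single libraries were used here. The settings for strand and for reads with several matches are not given in the sources used here. The deposited columns of group means, fold changes, t scores and p-values, which hold the authors' own comparisons, were not used. No value per library was left unmapped.

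Library depth was recovered from the steps of low RPKM values, where 87.0% to 91.3% of them gave whole reads to a tolerance of 0.08 (16% is what evenly spread values would give). RPKM was tested as such and not turned into counts. Names were matched to R64 for 6074 rows, and no member overlaps another annotated gene there.

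Laser and control were compared at each time by limma 3.58.1 (R 4.3.3), with a variance trend, on log2(RPKM + 1), keeping genes that reached 1 RPKM in 3 or more of the 6 libraries, with Benjamini-Hochberg adjustment over all genes tested. Times and the change of the laser effect were tested in 1 fit of all 24 libraries. A member was called at an adjusted p under 0.05 at any fold. The tests have 3 cultures per group, so p-values cover the spread between these cultures. The fits were tested on simulated data with laser over control changes of known size in 200 genes and none in the others. In the measured data 1331 genes rose and 251 fell at T15, and 844 rose and 126 fell at T30. The adjustment depends on how many genes change, so the simulated recovery does not give that of the measured data. A log2 change of 0.5 was recovered in 0% of changed genes at every time. For a log2 change of 1 the recovery was 43% (T0), 33.5% (T15), 30.5% (T30) and 0% (T60). A log2 change of 2 was recovered in 82.5% to 92.5%. A member that did not pass may therefore still have changed by 2-fold or less.

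Replicate numbers were read as shared cultures, because the study divided every culture into both portions. Laser and control libraries of 1 number deviated together from their group means with r between -0.03 and 0.53 over genes, with all but 3 of 12 pairs above 0.1. The alternatives were a pseudocount of 0.1, no filter, median-ratio rescaling, no variance trend, a 2-fold minimum, the culture as a block, and leaving out single libraries or cultures. Gene names given with full values are those that passed, and per role the 2 with the smallest p over the 4 laser against control tests. Other lists give up to 3 genes by their p at T30. A few further members were named after their values were seen. The members and lists were chosen with earlier results of these data known. Matplotlib 3.10.9 drew the figures, and pandas 2.3.3 and NumPy 2.4.6 under Python 3.11.15 built the summaries.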

Additional observations from a re-analysis of the deposited data

Results flagged for a closer look

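The laser effect on *POL30* differed between T30 and T15. The log2 fold change of laser over control was lower at T30 than at T15 by an interaction of -1.20 (SE 0.21, limma adjusted p = 0.00380, tested over 24 libraries and adjusted over all genes). At T30 the laser portion had the lower *POL30* level in 3 of 3 cultures, and at T15 it had the higher level in 3 of 3 cultures. No other member had a laser effect that differed between neighbouring times in this fit.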

How the results depend on the processing

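The number of members called moved with the setting. Of the 297 results for single members 243 kept their side of the threshold, 38 lost the call and 16 gained one. None changed direction, but the block, the filter and the variance trend leave an estimate as it is and could not turn it. These results were also picked by a passed test or a small p in the same data, so their direction is no independent check. The pseudocount of 0.1 changed 1 count (1 member for Control T30 over T15), and no filter or no variance trend changed no count by more than 1.5 times. With a 2-fold minimum there remained 1 member at T15 and 0 at T30 for laser over control, 0, 1 and 0 for the 3 control intervals in order of time, and 1 and 0 for Laser T15 over T0 and T60 over T30. By this rule 0.651% of all genes rose for Control T30 over T15 and 2.75% for Laser T15 over T0. With median-ratio rescaling 7 members were called at T30 (1 higher, 6 lower) and 7 at T15 (3 higher, 4 lower, against 5 higher and 0 lower as reported), with 7, 9 and 3 for the control intervals, 10, 1 and 10 for the laser intervals, and 1 each for the change of the laser effect to T15 and to T60. With the replicate block, read as the shared culture, 18, 5 and 1 members were called for laser over control at T15, T30 and T60. Control T15 over T0 and T30 over T15 gave 5 and 7. The laser intervals gave 6, 1 and 7, and the change of the laser effect to T15 gave 2. The 1 call for Laser T30 over T15 was lower, where 10.7% of all genes fell. The block joined with rescaling was an alternative chosen after seeing the data. At T15 it gave 18 members for laser over control (5 higher, 13 lower), where 23.2% of all genes rose and 24.4% fell. At T30 it gave 9 (1 higher, 8 lower), where 17.5% rose and 10.9% fell, and at T60 2 lower, where 2.97% fell. The control intervals gave 12 (10 higher, 2 lower), 12 and 7 (higher only), where 19.6%, 4.23% and 3.65% of all genes rose. The laser intervals gave 14, 3 and 18 (12, 2 and 17 higher, the rest lower), where 14.5%, 5.57% and 9.81% rose. The changes of the laser effect gave 1 higher, 2 lower and 4 higher, where 10.4%, 1.51% and 3.68% of all genes were. When single libraries were left out, the counts for laser over control ran from 2 to 7 at T15 (2, 3 and 7 without Control replicate 1, 2 or 3, and 3 without any 1 Laser replicate), from 1 to 4 at T30 (3 and 4 without Laser replicate 1 or 3, and 1 otherwise) and from 0 to 1 at T60 (where *POL30* passed without Laser replicate 1), and a group of 2 was then assumed to vary like the other. Without single cultures they ran from 0 to 5, 0 to 1 and 0 to 1 for the control intervals, from 0 to 1, at 0 and from 0 to 2 for the laser intervals, and from 0 to 2 and at 0 for the changes of the laser effect. The cause of these differences was not tested. In the last settings a smaller number of libraries cannot be told apart from the loss of that library's or culture's values. The share of all genes called in those settings was not counted. Depth left every member at least 24 reads per library.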

Other observations

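Libraries of replicates 1 and 3 differed along gene length in the same sense in every group. Over the 46 members the Spearman rho between gene length and the log2 difference of replicate 1 minus replicate 3 was -0.54, -0.51, -0.64 and -0.72 in Laser libraries at T0, T15, T30 and T60, and -0.51, -0.41, -0.55 and -0.72 in Control libraries. Over 5857 genes it ran from -0.62 to -0.42 in Laser and from -0.61 to -0.38 in Control libraries. The shortest member, *PSF3*, read high in replicate 1 and low in replicate 3, with 117 and 63.4 RPKM in Laser T60 and 110.5 and 61.5 RPKM in Control T60, while the longest, *POL2*, read 4.78 and 9.68 RPKM in Laser T60 and 7.42 and 14.3 RPKM in Control T60. This pair of replicates was chosen after the values were seen, replicate 2 was not compared in this way, the points share their libraries, and genes are not independent samples.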
